A study of Homo sapiens with 12 samples.

Results

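CAMA-1 is an established luminal breast cancer cell line that grows on oestrogen receptor (ER) signalling. The comparison described here adds abemaciclib, an inhibitor of the cyclin D-dependent kinases CDK4 and CDK6, to fulvestrant, an antagonist that also causes the ER protein to be degraded. The members are the 6 libraries of wild-type CAMA-1 cells labelled fulvestrant (3) and abemaciclib plus fulvestrant (3, here "combination"), out of 12 libraries in all; the other 6 are DMSO vehicle (3) and abemaciclib alone (3) and appear below only as reference levels. The labels give 5 nM for fulvestrant alone and 100 nM for abemaciclib alone, and do not restate the doses in the combination; treatment lasted 5 days by the study's methods. Every group is the same line, carries no engineered allele and was grown as 3 independent cultures, so the results describe 1 cell line. The measurement is RNA sequencing from the 3′ ends of transcripts (QuantSeq). Levels are given as CPM (read counts scaled to a library's normalised total) with trimmed mean of M-values scaling, and fold changes as log2 of combination over fulvestrant. A gene passed the test where the Benjamini-Hochberg adjusted p of edgeR's quasi-likelihood test was under 0.05 among 11803 genes tested.

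As background, cyclin D with CDK4 or CDK6 phosphorylates the retinoblastoma protein Rb, which frees E2F transcription factors from repression and starts the genes for DNA replication. A second wave of transcription, for mitosis, depends on the MuvB complex joined by B-MYB (encoded by MYBL2) and FOXM1. In cells that leave the cycle, MuvB joins the pocket proteins p107 or p130 and E2F4 to form the DREAM complex, which represses both waves. In ER-positive breast cancer the ER drives CCND1, which encodes cyclin D1, so that a degrader and a CDK4/6 inhibitor act on the same pathway at different steps. In bulk RNA, fewer cycling cells and less RNA per cycling cell cannot be told apart.

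The 12 libraries held between 3299119 and 5164667 counts. Fulvestrant replicate 3 stood apart from its group. Its log-CPM correlations with fulvestrant replicates 1 and 2 were 0.978 and 0.97, where those 2 correlated at 0.981. Correlation set it apart little, since its highest value with a combination library, 0.976, was also reached by fulvestrant replicate 1. Of 8472 genes with a mean of at least 10 CPM, 91 were more than 2-fold from the mean of their group mates in fulvestrant replicate 3. The number was 46 in fulvestrant replicate 2, 5 in fulvestrant replicate 1 and 6 to 12 in the combination libraries. The counts below, and the genes that fulvestrant replicate 3 decides, are therefore given with and without it. Markers defining luminal cells were expressed: ESR1, which encodes the ER, stood at 90.4, 88.3 and 107 CPM under fulvestrant and 83.7, 76.3 and 84.5 CPM in the combination, and KRT19, a simple epithelial keratin, at 1838 to 2093 and 1862 to 2052 CPM. The summed level of 6 leukocyte markers stayed between 0 and 1.73 CPM over the 6 libraries and that of 5 endothelial markers between 0 and 0.846 CPM. PTPRC and CDH5, their defining genes, did not reach the tested set. The 6 basal epithelial markers summed to 76.4 to 94.0 CPM in the 6 libraries, against 9.50 to 16.3 CPM in DMSO. The 6 fibroblast markers summed to 23.7 to 37.0 CPM, against 17.8 to 21.7 CPM in DMSO.

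Falls outnumbered rises. Adding abemaciclib lowered 192 genes, or 1.63% of those tested, and raised 35, or 0.297%. The lowered genes changed far more: 122 of them fell at least 2-fold and 77 at least 4-fold, with a median log2 fold change of -1.61, whereas the raised genes had a median of 0.42. The median over all genes tested was 0.00, with quartiles of -0.15 and 0.13. Of the 192 lowered genes, 100 belonged to the cell cycle lists used here, which had 290 members among the genes tested; none of the 35 raised genes did. The combination libraries lay below every fulvestrant library for 191 of the 192, against 7.44% of all genes tested. They lay above every fulvestrant library for 35 of 35, against 7.13%. Both sets were called from these same libraries, so the separation largely follows from the call and adds no support to it. Much of the transcriptome was measured closely enough to bound the difference: for 7102 of the 11576 genes that did not pass (61.4%), the 95% confidence interval lay within 1.5-fold in either direction.

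**Figure D1:**
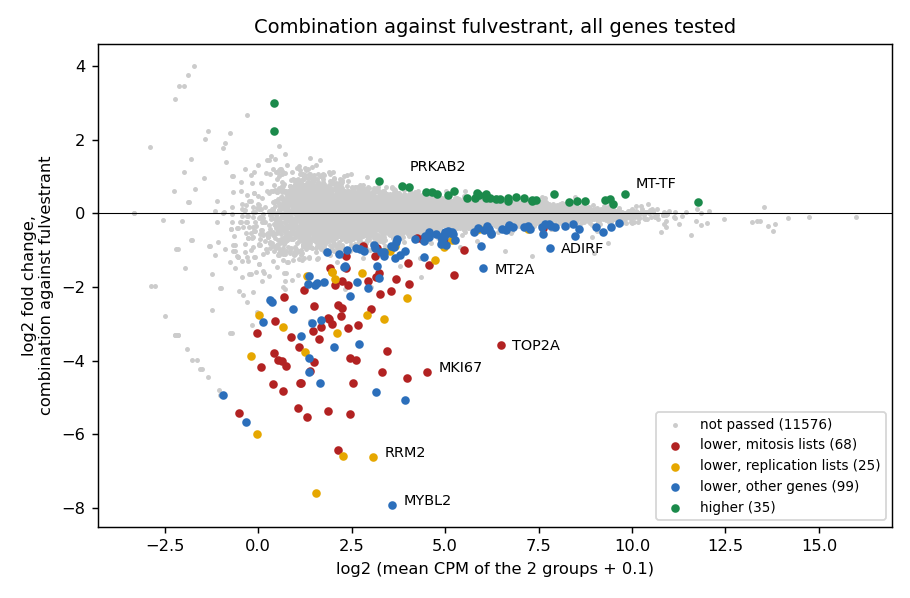
Each point is 1 of the 11803 genes tested, placed by its mean level over the fulvestrant and combination libraries (x, log2 of CPM plus 0.1) and its log2 fold change of combination over fulvestrant (y). Red marks lowered genes of the mitosis lists (68), yellow those of the replication lists (25), blue other lowered genes (99) and green the raised genes (35); the lowered genes reach -7.91 for MYBL2, while most raised genes stay under 1. At the left edge, fitted values rest on few reads.

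Genes that act in mitosis made up the largest set of falls. The 4 mitosis lists together (kinases and cyclin B, centromere and kinetochore, spindle and cytokinesis, condensins with TOP2A and MKI67) had 113 members tested, of which 68 fell, none rose and 45 did not pass; without fulvestrant replicate 3, 73 fell. Their median log2 fold change was -1.72, against 0.00 over all genes tested. In 28 of the 113 no combination library held more than 3 reads, and with those genes set at 3 reads per library the median was -1.48. Summed over the lists, the level was 2597, 2559 and 2538 CPM under fulvestrant and 1611, 1666 and 1697 CPM in the combination, against 12460 to 13040 CPM in DMSO and 4194 to 4375 CPM under abemaciclib alone. Each combination library was below each fulvestrant library, which were themselves far below DMSO.

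MKI67 encodes the proliferation antigen Ki-67, which coats mitotic chromosomes (GRCh38 chr10:128096659-128126423, minus strand). It was at 44.5, 41.2 and 45.6 CPM in the fulvestrant libraries and 2.41, 2.48 and 1.75 CPM in the combination libraries. The groups were far apart, with a log2 fold change of -4.30 ± 0.17 (SE, n = 3 per group; edgeR adjusted p = 2.85e-16). TOP2A, the topoisomerase that untangles sister chromatids (chr17:40388525-40417896), was at 167, 145 and 187 CPM under fulvestrant and 14.4, 16.8 and 10.9 CPM in the combination, a change of -3.58 ± 0.12 (adjusted p = 4.98e-17). Set against DMSO, TOP2A stood at 20.7% under abemaciclib alone, 9.25% under fulvestrant alone and 0.779% under both.

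Among the regulators of mitotic entry and exit, PTTG1, the securin that holds back sister chromatid separation, went from 32.9, 30.5 and 27.8 CPM to 0.722, 1.24 and 1.94 CPM. UBE2C, the ubiquitin-conjugating enzyme of the anaphase-promoting complex, went from 18.5, 19.2 and 13.7 CPM to 0, 0.414 and 1.17 CPM. BIRC5, which encodes survivin of the chromosomal passenger complex, went from 17.3, 24.0 and 15.5 CPM to 0.481, 0.827 and 1.36 CPM. In each of these genes the highest combination library was far below the lowest fulvestrant library, and the log2 fold changes were -4.47 for PTTG1, -4.84 for UBE2C and -4.31 for BIRC5. PLK1, a kinase of mitotic entry, changed by -3.97 ± 0.32, and CDK1, the kinase that drives mitosis, by -3.93 ± 0.37. CCNA2, which encodes cyclin A, the partner of CDK2 and CDK1, held 84 reads over the fulvestrant libraries and 2 over the combination libraries, a ratio of 49.6 (95% exact counting interval 13.3 to 416, which covers counting error only).

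The spindle genes behaved alike. KIF4A, a chromosome-bound kinesin, went from 11.4, 10.7 and 10.9 CPM to 0.481, 0.620 and 0.194 CPM. TACC3, which stabilises spindle microtubules, changed by -3.73 ± 0.31 and KIFC1, a minus-end kinesin that clusters centrosomes, by -3.03 ± 0.44. KIFC1 was the more variable of the pair, with 7.91, 9.31 and 15.95 CPM under fulvestrant, the highest value being replicate 3. CKAP2L, a spindle protein, held 125 reads against 3 (ratio 49.2, interval 16.4 to 242), CEP55, which acts in abscission, 54 against 1, and NCAPG, a condensin subunit, 102 against 1. SPC24 of the outer kinetochore held 49 reads against 2, and CENPA, the centromeric histone, only 21 against 1. CDC20, the activator of the anaphase-promoting complex, changed by -2.99 ± 0.48.

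Other members of the same lists did not pass. BUB3, a checkpoint protein, was at 121, 124 and 107 CPM under fulvestrant and 111, 113 and 114 CPM in the combination, with a 95% interval of the log2 fold change from -0.23 to 0.11. KIF5B, a kinesin of cargo transport, gave -0.06 (-0.23 to 0.10), and SMC2, a core subunit of both condensins, -0.18 (-0.42 to 0.07). The other core subunit, SMC4, did fall (-0.995 ± 0.116), as did 6 of the 12 tested members of that list. SMC2 had 27.6% of its DMSO level under fulvestrant and 24.5% in the combination. In the list of the anaphase-promoting complex and SCF ligases, 3 of 23 fell, UBE2C and CDC20 among them, and the list median was -0.02.

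**Figure D2:**
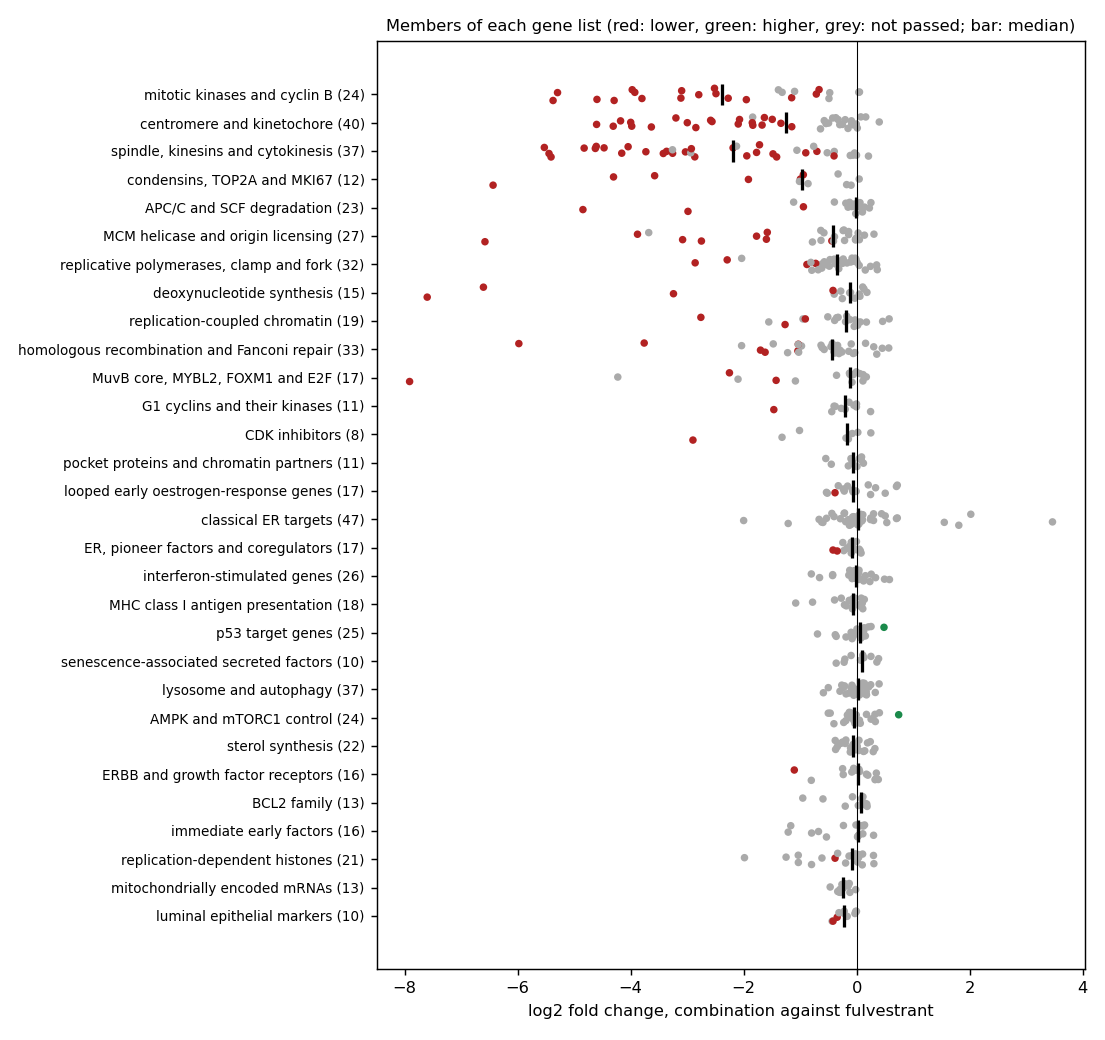
Each point is a tested member of the list named at the left (number tested in parentheses), placed by its log2 fold change of combination over fulvestrant; red fell, green rose, grey did not pass, and the black bar is the list median. The mitosis lists at the top have medians from -2.38 to -0.97 and the replication lists from -0.43 to -0.12. Medians of the lists below them run from -0.24 (mitochondrially encoded mRNAs) to 0.09 (senescence-associated secreted factors). That range overlaps the range of the replication lists.

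DNA replication genes gave a different picture. Of 126 members of the 5 replication and repair lists that were tested, 25 fell, none rose and 101 did not pass (27 fell without fulvestrant replicate 3), with a median of -0.36. As a share of DMSO, the median member stood at 44.3% under abemaciclib alone, 25.8% under fulvestrant and 22.4% in the combination, whereas the median mitosis gene stood at 32.8%, 13.2% and 4.12%. The medians of the lists are closer to each other under the single drugs than in the combination.

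**Figure D3:**
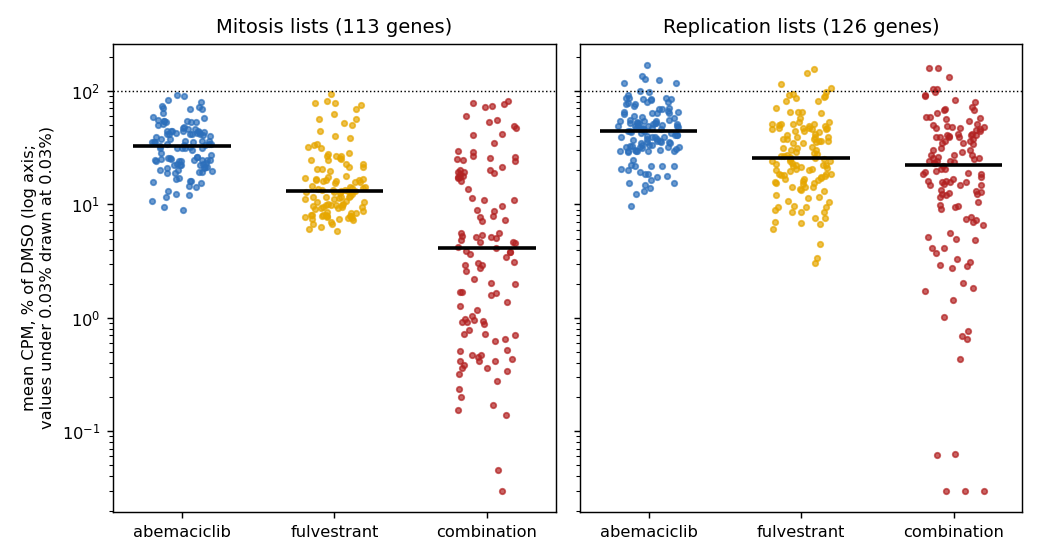
Each point is a gene of the mitosis lists (left, 113) or the replication lists (right, 126), placed by its mean CPM as a percentage of its DMSO mean (log axis) under abemaciclib alone, fulvestrant alone and the combination; the black bar is the median and the dotted line 100%. In the mitosis lists the median goes from 13.2% under fulvestrant to 4.12% in the combination, and in the replication lists from 25.8% to 22.4%.

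The 25 replication genes that fell included several with the largest changes measured. RRM2, the regulated subunit of ribonucleotide reductase, was at 17.1, 18.3 and 14.4 CPM under fulvestrant and 0, 0.207 and 0.194 CPM in the combination: 197 reads against 2, a ratio of 116 (interval 31.8 to 967). MCM10, which activates the replicative helicase, held 113 reads against 1. TYMS, thymidylate synthase, was at 6.18, 7.90 and 2.74 CPM and then at 0 in all 3 combination libraries, 65 reads against 0. TK1, thymidine kinase, changed by -3.24 ± 0.34 and CLSPN, the claspin that couples the fork to checkpoint kinase CHK1, by -2.86 ± 0.23. CLSPN went from 17.1, 15.8 and 21.2 CPM to 2.41, 3.31 and 1.75 CPM. PCLAF, a clamp-binding factor, changed by -2.29 ± 0.19, ASF1B, a histone chaperone, by -2.76 ± 0.24, and HELLS, a chromatin remodeller, by -1.27 ± 0.12.

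Some other parts of the same machines did not pass. RRM1, the partner subunit of RRM2 in ribonucleotide reductase, was at 168, 151 and 138 CPM under fulvestrant and 133, 143 and 148 CPM in the combination, with overlapping groups and an interval of -0.30 to 0.09 for the log2 fold change. MCM4, of the helicase itself, gave -0.14 (-0.36 to 0.08), with 51.5% of DMSO under fulvestrant and 46.9% in the combination. RFC1, the large subunit of the clamp loader, gave -0.17 (-0.35 to 0.00). Further parts did fall, MCM3 of the helicase by -0.44 and the clamp PCNA by -0.73. In the helicase and licensing list 8 of 27 tested members fell, and in the polymerase, clamp and fork list 4 of 32. FAM111B, a protease gene outside the lists, was among the 15 largest falls: 34.3, 25.7 and 28.0 CPM became 0.962, 1.45 and 0.194 CPM (-5.07 ± 0.28).

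The transcription factors of both waves were measured in the same list. MYBL2 (chr20:43667019-43716495) was at 28.4, 22.8 and 20.3 CPM in the fulvestrant libraries and 0.241, 0 and 0 CPM in the combination, 285 reads against 1, a ratio of 336 (interval 59.9 to 13300). It had the largest fitted fall of any gene past the threshold. FOXM1 was at 6.67, 11.6 and 8.66 CPM and then 2.41, 2.27 and 0.971 CPM (-2.25 ± 0.30; adjusted p = 8.41e-06). E2F1 was at 13.3, 11.8 and 14.1 CPM and then 5.77, 3.72 and 5.24 CPM (-1.43 ± 0.19; adjusted p = 1.49e-05). The other 14 of the 17 tested members of that list did not pass, and the list median was -0.12.

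The promoters of the genes tested were also searched for known motif letters. DREAM and MuvB complexes are known to bind the cell cycle genes homology region (CHR), often downstream of a CCAAT box, and E2F proteins bind a separate element. RefSeq promoters on GRCh38.p14, running from 250 bases before the start of the gene to 50 after it, were searched on both strands for the letters TTTGAA (CHR), CCAAT, and the E2F letters TTTGGCGC, TTTCGCGC, TTTCCCGC or TTTGCCGC; a CHR and a CCAAT box may share bases. A promoter was matched for 8986 of the 11803 genes, of which 9.1% held the CHR letters, 37.7% a CCAAT box, 5.64% the E2F letters and 4.06% both CHR and CCAAT. Of 58 lowered mitosis genes with a promoter, 67.2% held the CHR letters and 50% both, while 6.9% held the E2F letters. Of 22 lowered replication genes, 4.55% held the CHR letters and 50% the E2F letters. Among the members that did not pass, 51.4% of 35 mitosis genes held the CHR letters and 25.6% of 86 replication genes the E2F letters. Of 28 raised genes, 3.57% held the CHR letters and none the E2F letters. A match of letters is a description and does not show that a factor was bound.

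The 100 bases before the start are shown for 6 lowered cell cycle genes with the CHR letters and for 2 with the E2F letters. The starts are those of RefSeq; by GENCODE v44, whose genes span all their transcripts, the windows of PLK1 and HELLS lie inside the gene, as do 55 bases of the CKAP2L window and 14 of the PRR11 window. Each reads 5′ to 3′ on the gene's strand, and capitals mark the matched letters on either strand.
MKI67 (chr10:128126424-128126523, minus strand): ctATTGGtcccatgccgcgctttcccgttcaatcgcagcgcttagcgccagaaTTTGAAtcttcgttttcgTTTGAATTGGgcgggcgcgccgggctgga
PLK1 (chr16:23678789-23678888, plus strand): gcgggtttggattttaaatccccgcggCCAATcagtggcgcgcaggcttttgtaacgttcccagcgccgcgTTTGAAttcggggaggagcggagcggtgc
KIF4A (chrX:70290004-70290103, plus strand): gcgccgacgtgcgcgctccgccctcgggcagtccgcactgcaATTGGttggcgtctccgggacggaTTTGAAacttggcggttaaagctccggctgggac
CKAP2L (chr2:112764610-112764709, minus strand): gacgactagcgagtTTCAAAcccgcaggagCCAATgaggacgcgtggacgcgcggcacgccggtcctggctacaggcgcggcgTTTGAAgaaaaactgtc
CDC20 (chr1:43358881-43358980, plus strand): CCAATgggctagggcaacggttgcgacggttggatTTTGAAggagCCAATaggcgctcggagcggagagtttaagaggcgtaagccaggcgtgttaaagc
PRR11 (chr17:59155646-59155745, plus strand): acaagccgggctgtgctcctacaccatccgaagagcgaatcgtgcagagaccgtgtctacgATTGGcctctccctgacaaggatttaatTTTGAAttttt
E2F1 (chr20:33686386-33686485, minus strand): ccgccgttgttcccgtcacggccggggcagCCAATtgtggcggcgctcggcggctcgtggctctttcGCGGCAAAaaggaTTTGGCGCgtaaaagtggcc
HELLS (chr10:94545688-94545787, plus strand): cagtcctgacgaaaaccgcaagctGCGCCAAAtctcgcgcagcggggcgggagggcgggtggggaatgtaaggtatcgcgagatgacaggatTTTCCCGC
In MKI67 a CHR and a CCAAT box in reverse share an A, and a second CHR lies upstream of it. CDC20 has a CCAAT box on each side of its CHR, and E2F1 has 2 matches to the E2F letters near its start. PRR11, a gene needed for cell cycle progression, went from 15.1, 10.7 and 9.80 CPM to 0.962, 0.620 and 1.36 CPM (-3.55 ± 0.28).

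Upstream of these factors, the cyclins, kinases and inhibitors of the G1 phase mostly did not pass. CCND1 was at 195, 186 and 205 CPM under fulvestrant and 244, 237 and 215 CPM in the combination; the combination libraries lay above, with a log2 fold change of 0.25 ± 0.07 that did not pass (adjusted p = 0.097) and passed without fulvestrant replicate 3 (0.28, adjusted p = 0.0192). Abemaciclib alone gave CCND1 1327 CPM against 617 CPM in DMSO, so its level in the combination, 37.6% of DMSO, was nearer that of fulvestrant, 31.6%. CCNE2, which encodes cyclin E2, an E2F target, fell from 7.66, 7.05 and 6.61 CPM to 3.13, 2.90 and 1.75 CPM (-1.47 ± 0.27; adjusted p = 0.00112). CCNE1 gave 0.00 (interval -0.51 to 0.50) and CDK4, the target of the inhibitor, -0.05 (-0.25 to 0.15); CDK6 was too low to be tested.

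CDKN1A, which encodes the CDK inhibitor p21, was at 132, 142 and 122 CPM under fulvestrant and 119, 111 and 118 CPM in the combination, a difference of -0.19 that did not pass (adjusted p = 0.398). Its level was already 865% of DMSO under fulvestrant and 759% in the combination, against 304% under abemaciclib alone. CDKN1B, which encodes p27, gave -0.08 (-0.31 to 0.15). CDKN3, listed among the CDK inhibitors although it encodes a phosphatase that peaks in cycling cells, was the member of that list that fell (-2.90 ± 0.41). RB1, which encodes Rb, was at 71.2, 80.4 and 45.8 CPM under fulvestrant and 46.0, 56.2 and 41.6 CPM in the combination. With all libraries the difference of -0.45 did not pass (adjusted p = 0.432); without fulvestrant replicate 3, whose value lies with the combination libraries, it was -0.66 and passed (adjusted p = 0.00524). KDM5A, a histone demethylase that binds Rb, gave -0.10 (-0.28 to 0.08).

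ER target genes are the direct output of the receptor that fulvestrant removes. Of 47 classical ER targets tested, none passed in either direction and the median was 0.02, with 24 log2 fold changes above 0 and 23 below. Over all genes tested 1.63% fell and 0.297% rose. Without fulvestrant replicate 3, 3 of the targets rose and 2 fell, where 1.57% of all genes rose and 3.43% fell. GREB1, an ER-bound coactivator, was at 4.45, 3.95 and 5.47 CPM under fulvestrant and 6.98, 8.89 and 7.18 CPM in the combination. Every combination library was higher, with 0.72 ± 0.20 that did not pass (adjusted p = 0.0807) and 0.87 without fulvestrant replicate 3 that did (adjusted p = 0.0375), at 5.70% and 9.47% of its DMSO level. TFF1, a secreted trefoil peptide, was at 1.73, 1.97 and 0.684 CPM and then 1.92, 2.90 and 2.14 CPM, against 60.5 CPM in DMSO and 382 CPM under abemaciclib alone. Its fulvestrant and combination libraries overlapped, and it did not pass (edgeR adjusted p = 0.526). PGR, the progesterone receptor gene, was at 0.228 to 0.988 CPM and then 1.17 to 2.69 CPM and did not pass (adjusted p = 0.201). The same direction was not shared by the abundant IGFBP5, an IGF-binding protein gene, at 10650 to 12000 CPM and then 8653 to 10260 CPM (-0.22, which did not pass by edgeR with all libraries; without fulvestrant replicate 3 the adjusted p was 0.0225, and by limma with sample quality weights on all libraries 0.0179). ESR1 itself gave -0.23 ± 0.09 (adjusted p = 0.304). Of 17 genes in looped domains that respond early to oestrogen, a list the study drew up in another cell line, only TOB1 passed. TOB1, an antiproliferative factor, was at 118.6, 121 and 144 CPM and then 99.1, 103 and 92.6 CPM (-0.38). Its call was lost without fulvestrant replicate 3 (edgeR adjusted p = 0.0793). In that fit 2 genes of the list rose and none fell.

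Of the luminal markers, 2 transcription factors passed and were lower. SPDEF, an ETS factor of secretory epithelium, went from 180, 187 and 164 CPM to 136, 131 and 130 CPM (-0.42 ± 0.09; adjusted p = 0.00873). FOXA1, the pioneer factor that opens chromatin for the ER, went from 316, 361 and 310 CPM to 270, 285 and 221 CPM (-0.34 ± 0.09; adjusted p = 0.0428). The groups did not overlap for either gene. SPDEF passed in 4 and FOXA1 in 2 of the 6 fits that leave out 1 library, and a fit of the fulvestrant and combination libraries alone gave FOXA1 an adjusted p of 0.183. The list held 10 tested markers, with a median of -0.22, and over all genes tested 1.63% fell. Without fulvestrant replicate 3, 4 of the 10 fell, KRT8 (-0.52) and MUC1 (-0.42) being the others, where 3.43% of all genes fell. KRT8 was near the threshold with all libraries (adjusted p = 0.0509), and both genes passed there by limma with sample quality weights (adjusted p = 0.0365 for KRT8 and 0.0119 for MUC1); KRT8 also passed by DESeq2 (adjusted p = 0.021).

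**Figure D4:**
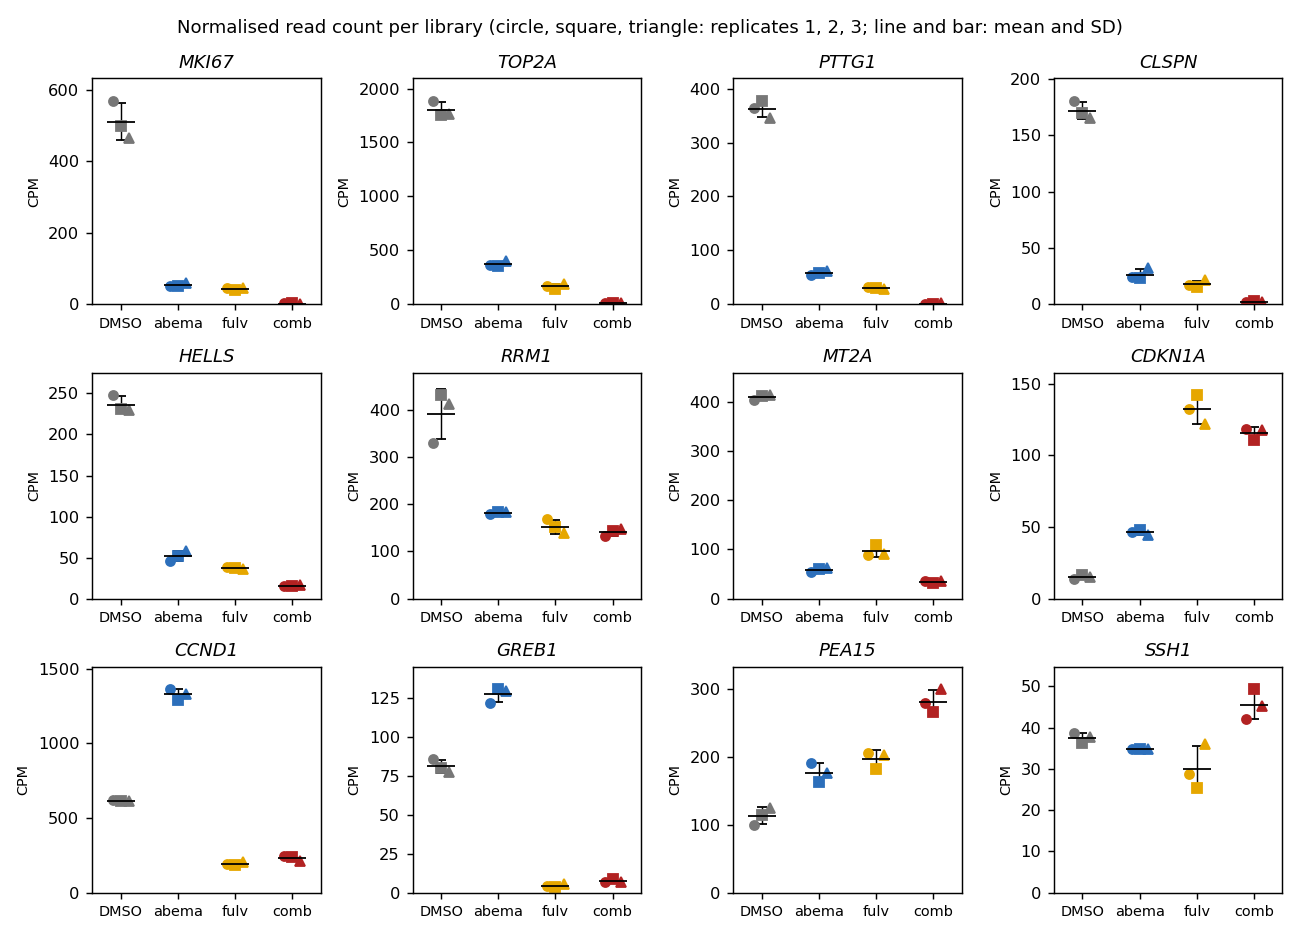
Normalised read count (CPM, linear axes from 0) of 12 genes in each of the 12 libraries; circles, squares and triangles are replicates 1, 2 and 3, and the line with its bar is the mean and SD of the 3 libraries. MKI67, TOP2A, PTTG1 and CLSPN drop at each step to near 0 in the combination, RRM1 does not differ between fulvestrant and combination beyond the spread, CDKN1A and GREB1 did not pass the test between these groups, and PEA15 and SSH1 are higher in the combination than under fulvestrant.

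Outside the cell cycle lists 92 genes fell, with a median of -0.75, 35 of them by 2-fold or more. Many, above all among the larger falls, are cell cycle genes that the lists do not hold, such as PRR11, FAM111B, DTL and CDCA5. The genes named next were picked and do not stand for all 92. Of the other genes in this paragraph, IRS1 and H1-2 came from the naming rule given below, and the rest were named after their values were seen. MT2A, a metallothionein that binds zinc and copper, went from 88.2, 109 and 90.5 CPM to 34.9, 31.2 and 35.9 CPM (-1.49 ± 0.10; adjusted p = 2.15e-11). ADIRF, an adipogenesis factor gene, went from 280, 328 and 271 CPM to 168, 157 and 134 CPM (-0.94 ± 0.09), and FBLN1, the matrix protein fibulin, from 12.6, 17.5 and 12.8 CPM to 4.09, 3.93 and 4.47 CPM (-1.76 ± 0.21). LMNB1, the lamin of the nuclear envelope that is lost in senescent cells, changed by -0.85 and DEK, a chromatin protein, by -0.55. HES1, a Notch target, changed by -0.44, PSCA, a surface antigen, by -1.19, LGALS1, a galectin, by -0.36, and L1CAM, an adhesion molecule, by -0.64, the last passing in 2 of the 6 fits that leave out 1 library. IRS1, the insulin receptor substrate, was the only member of the 16 tested growth factor receptor genes to fall (5.68, 7.33 and 5.01 CPM, then 2.17, 3.31 and 2.72 CPM; -1.10); it passed in 1 of the 6 fits that leave out 1 library and not by DESeq2 (adjusted p = 0.0564) or limma (adjusted p = 0.0795). H1-2, a linker histone, was the only one of 21 tested replication-dependent histone genes to fall (-0.38). That list holds 51 genes, of which 13 had no read in any library, so it was measured only in part.

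The raised genes were few and their changes small. SSH1, a phosphatase that activates cofilin, went from 28.7, 25.4 and 36.0 CPM to 42.1, 49.2 and 45.2 CPM (0.59 ± 0.13), and TNPO2, a nuclear import receptor, from 48.4, 53.9 and 65.9 CPM to 77.5, 75.5 and 90.7 CPM (0.53 ± 0.11). SOX9, a transcription factor of progenitor cells, gave 0.57 and SOX4, of the same family, 0.32. C5AR2, a complement receptor, gave 0.71, RAB3B, a vesicle GTPase, 0.57, and PEA15, a phosphoprotein that binds ERK, 0.51. MT-TF, a mitochondrial tRNA, is listed among the rises (653.5, 804.4 and 741.1 CPM, then 1259, 1042 and 886 CPM), although the 13 mitochondrially encoded mRNAs had none past the threshold and a median of -0.24. RPL32P3 is a ribosomal protein pseudogene whose reads may be shared with its parent, and MAPKAPK5-AS1 is an antisense transcript whose reads cannot be told from its partner because the strand setting of the counting is not stated. The 2 raised genes past 2-fold, LINC01948 and COL18A1, had at most 3 reads in any fulvestrant library and at most 12 in any combination library. Leaving out each of the 6 libraries in turn, 3 of the 35 rises (MT-TF and PEA15 among them) passed in every fit and 27 passed in 3 fits or fewer, whereas 115 of the 192 falls passed in every fit.

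PRKAB2 (chr1:147155106-147172550) encodes a beta subunit of AMPK, the kinase that senses low energy. It was at 10.1, 8.74 and 13.2 CPM under fulvestrant and 16.1, 18.0 and 20 CPM in the combination (0.74 ± 0.19; adjusted p = 0.0316). It passed in 2 of the 6 fits that leave out 1 library, and not by DESeq2 (adjusted p = 0.0581). It was 1 of 24 tested genes of AMPK and mTORC1 control, a list with a median of -0.04. Without fulvestrant replicate 3, STK11, which encodes the upstream kinase LKB1, passed as well (0.51, adjusted p = 0.0125; 0.40 with all libraries), as did PRKAG1, a gamma subunit (0.45, adjusted p = 0.00247). ZMAT3, an RNA-binding target of p53, was the only one of 25 p53 targets to rise (52.1, 43.7 and 54.5 CPM, then 65.4, 77.7 and 67.6 CPM; 0.48 ± 0.12), and passed in 2 of the 6 fits that leave out 1 library. No member passed in either direction among 26 interferon-stimulated genes, 18 of MHC class I presentation and 10 senescence-associated secreted factors. The same held for 37 of the lysosome and autophagy, 22 of sterol synthesis, 13 of the BCL2 family and 16 immediate early factors. Over all genes tested 1.63% fell and 0.297% rose, so lists of this size would hold few calls at that rate. The medians of these lists lay between -0.07 and 0.09. Without fulvestrant replicate 3, 3 of the MHC class I list fell (HLA-E, -0.39) and 3 of the lysosome list (CD63, -0.41). In that fit 1 secreted factor fell, and 1 sterol synthesis gene rose and 1 fell. Over all genes tested it called 3.43% lower and 1.57% higher. In HLA-E and CD63, replicate 3 was the lowest fulvestrant library: 133, 132 and 102 CPM for HLA-E and 1036, 1173 and 778 CPM for CD63.

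The response to abemaciclib in the presence of fulvestrant was next set beside its response without it, abemaciclib alone against DMSO, which uses none of the same libraries. Abemaciclib alone lowered 2449 genes (20.7%) and raised 2415 (20.5%). Of the 192 genes lowered in the combination, 161 were also lowered by abemaciclib alone (161 of its 2449), 16 were raised and 15 did not pass. Of the 35 raised, 22 were raised by abemaciclib alone (22 of its 2415), 1 was lowered and 12 did not pass. LGALS1 and L1CAM were among the 16 that went opposite ways, with log2 fold changes of 0.86 for LGALS1 and 1.23 for L1CAM under abemaciclib alone.

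Whether the size of the abemaciclib response differed was tested by the interaction of the 2 drugs, which asks if their joint effect on the log scale departs from the sum of the single effects. The interaction was negative for 1373 genes (11.6% of those tested) and positive for 1120 (9.49%). Among the 113 mitosis genes it was negative for 22 and positive for 26, and among the 126 replication genes negative for 3 and positive for 51. A positive value in a gene that abemaciclib alone lowers means that it lowered the gene less on top of fulvestrant, as in RRM1, where abemaciclib alone gave -1.10 and the interaction was 0.99 (adjusted p = 3.35e-06), and MCM4, with -0.94 and 0.80. In TOP2A abemaciclib gave -2.27 alone and -3.58 on top of fulvestrant, an interaction of -1.30 ± 0.19 (adjusted p = 8.05e-07), and in MKI67 -3.24 and -4.30. E2F1 changed by -1.42 alone and -1.43 on top of fulvestrant, with an interaction of 0.00, and CLSPN by -2.71 and -2.86. MT2A went the other way, -2.80 alone and -1.49 on top of fulvestrant. Of the 192 lowered genes, 57 had a negative and 29 a positive interaction; of the 35 raised, 8 and 8. For the classical ER targets, 16 of 47 had a negative interaction and 2 a positive one. TFF1 and CCND1 were among the negative ones, as was KRT19 of the looped list; abemaciclib alone raised all of them (2.66 for TFF1, 1.10 for CCND1, 0.81 for KRT19), and none passed on top of fulvestrant.

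Leaving out fulvestrant replicate 3 raised the number of calls. On the same 11803 genes, 405 fell (3.43%) and 185 rose (1.57%). Of the falls called with all libraries 180 remained and 12 were lost, BRCA2 and TOB1 among them; of the rises 33 remained and 2 were lost. The 225 added falls had a median of -0.46 and the 152 added rises a median of 0.42, and 151 of the former and 108 of the latter were under 1.5-fold. Among all 225 added falls 11, and among all 152 added rises 1, CCND1, belonged to the cell cycle lists. Those lists held 290 of the 11803 genes tested. For 171 of the 225 added falls and 96 of the 152 added rises, replicate 3 lay within or beyond the range of the combination libraries. These genes passed only once replicate 3 was left out, so its position largely follows from how they were picked. ZNF865, a zinc finger gene, was at 21.5, 18.1 and 36.7 CPM under fulvestrant and 44.8, 37.8 and 36.1 CPM in the combination, and COPG2, a coat protein gene, at 33.9, 34.7 and 74.5 CPM and then 65.0, 66.8 and 59.6 CPM. COPG2 gave 0.40 with all libraries and 0.90 without replicate 3. MAPKBP1, PIGH and TYW5, which did not pass by edgeR with all libraries, gave 1.04, 1.10 and 0.87 without it. With all libraries, limma with sample quality weights also called ZNF865 (adjusted p = 0.00443), COPG2 (adjusted p = 0.0161) and MAPKBP1 (adjusted p = 0.0375). The common biological coefficient of variation was 0.0918 with all libraries and 0.0741 without this one. With 2 fulvestrant libraries left, their spread is assumed to be like that of the other groups.

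**Figure D5:**
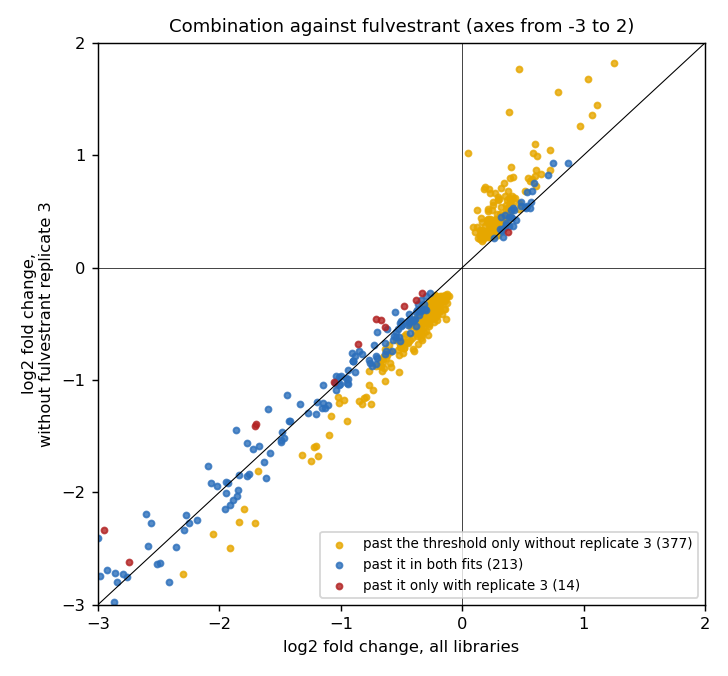
Each point is a gene past the threshold with all libraries, without fulvestrant replicate 3, or in both fits, placed by its log2 fold change with all libraries (x) and without that library (y); the axes run from -3 to 2, and 59 of the 604 genes lie outside them. Genes past the threshold only without replicate 3 (377, yellow) lie close to 0 and farther from it on the y axis than on the x axis, while the 213 called in both fits (blue) follow the diagonal.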

How the data were processed

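Total RNA of CAMA-1 cells was profiled as 3′-end sequencing libraries (QuantSeq, single-end reads) in 12 samples, 3 cultures for each of 4 groups taken from the labels. The authors trimmed reads with BBDuk, aligned them with STAR to GRCh38 and counted them per GENCODE gene with featureCounts (Subread 2.0.1). The deposited values are raw counts per gene, with no molecular identifiers named and the strand setting not given in the sources used here. Rows without a gene name (44, holding 0 reads) were left out.

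All computation from the counts was done here. Genes with at least 10 counts in enough libraries for a group and 15 in all were kept (filterByExpr, 11803 genes). The edgeR 4.0.16 robust quasi-likelihood test with TMM scaling was fitted on all 12 libraries, with contrasts for combination against fulvestrant, abemaciclib against DMSO, and their difference (interaction). P-values were adjusted by the Benjamini-Hochberg method over all genes tested, at 0.05. The SE was taken from the F statistic. The fit was repeated without fulvestrant replicate 3 on the same genes. Ratios for genes with 3 reads or fewer over the combination group carry exact binomial intervals. Totals of 3299119 to 5164667 counts put 3 reads at 0.57 to 0.89 CPM. P-values measure the spread between cultures of 1 experiment. Alternatives used other scalings, filters, DESeq2 1.42.0, limma 3.58.1, left-out libraries, a replicate block and thinning; the procedure was tested on simulated data.

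The named genes are the 15 largest falls and 10 largest rises past the threshold with groups that do not overlap and at least 10 CPM in the higher group, the 10 largest rises without fulvestrant replicate 3, up to 3 falls, 3 rises and 2 genes that did not pass in each list, and a set of cell cycle and ER genes; not every gene of the rule is printed. STK11, PRKAG1, HLA-E, CD63, KRT8, MUC1, PEA15, SOX4, LINC01948 and COL18A1 were added after their values were seen. So were MT2A, ADIRF, FBLN1, LMNB1, DEK, HES1, PSCA, LGALS1, L1CAM, MCM3, PCNA, SMC4, DTL and CDCA5. The comparison and the gene lists were chosen with earlier results of these data known.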

Additional observations from a re-analysis of the deposited data

Results flagged for a closer look

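Each gene is listed here because the test of the drugs' interaction passed (edgeR adjusted p under 0.05): the log2 effect of abemaciclib with fulvestrant differed from its effect without it. Values are the interaction, the first effect minus the second. For genes with 3 reads or fewer in each combination library the fitted value depends on the prior count and is not a bound; these are MYBL2 (-6.33), MCM10 (-3.56), NCAPG (-3.49), CEP55 (-3.38), RRM2 (-3.23), CKAP2L (-2.89), KIF4A (-2.57), SPC24 (-2.27) and CCNA2 (-1.89). Of the other genes lowered in the combination, negative values were found for UBE2C (-3.05), TACC3 (-2.15), L1CAM (-1.87), BIRC5 (-1.92), PRR11 (-1.86), PTTG1 (-1.83), PLK1 (-1.79), CDK1 (-1.67), FAM111B (-1.67), TOP2A (-1.30), FBLN1 (-1.29), LGALS1 (-1.22), MKI67 (-1.06), ASF1B (-0.98), ADIRF (-0.69), FOXA1 (-0.48) and HES1 (-0.44). Positive values were found for HELLS (0.92), MT2A (1.31), CCNE2 (1.32), DEK (1.76) and LMNB1 (1.76). The interaction also passed and was positive for MCM3, PCNA and SMC4.

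Among the genes raised in the combination, the value was negative for SOX4 (-0.77) and RAB3B (-0.61), and positive for TNPO2 (0.66), SSH1 (0.70) and RPL32P3 (1.12). Among genes that did not pass on top of fulvestrant it was negative for TFF1 (-1.95), CDKN1A (-1.78), KRT8 (-0.93), CCND1 (-0.86), KRT19 (-0.83), MUC1 (-0.67), CD63 (-0.64), IGFBP5 (-0.58) and ESR1 (-0.37), and positive for KIF5B (0.44), MCM4 (0.80), RRM1 (0.99) and SMC2 (1.08). Over all genes tested 11.6% had a negative and 9.49% a positive interaction.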

How the results depend on the processing

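The median log2 fold change of the mitosis lists stayed negative under every alternative run, from -1.78 to -1.53 when 1 library was left out, the smallest without combination replicate 3. The replication median stayed between -0.3654 and -0.3132 and moved by less than the spread between replicates (0.0467). The classical ER median, 0.0171, ranged from -0.045 to 0.0253 and so changed sign, all within a replicate spread of 0.161. The count of falls, 192 with all libraries, was 124 when only the groups compared were fitted, 137 to 405 with 1 library left out, 334 by DESeq2 without fulvestrant replicate 3 and 392 in the fit of the compared groups without it. Under the remaining alternatives the falls stayed within 1.5 times 192. The count of rises, 35, was less stable: 19 by DESeq2, 85 by limma with sample quality weights, 6 when only the groups compared were fitted, 7 to 185 with 1 library left out (8 without fulvestrant replicate 1, 18 without replicate 2, and 22, 10 and 7 without combination replicates 1, 2 and 3), 90 by DESeq2 without fulvestrant replicate 3 and 165 in the fit of the compared groups without it. The cause of these shifts was not tested. Of the genes printed, those that changed sign were all near 0 and past no threshold: with 1 library left out, CDK4 ranged from -0.1269 to 0.0254, KRT19 from -0.067 to 0.0214 and CCNE1 from -0.0894 to 0.063; CCNE1 was also at 0.0031 with upper-quartile factors, 1e-04 with no filter, 0.1584 when thinned and, without fulvestrant replicate 3, 0.0128 by DESeq2 and 0.0206 in the compared groups.

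Same-numbered fulvestrant and combination libraries did not deviate together (correlations of -0.0831, 0.0749 and 0.0297), so the numbers were not taken as pairs. A fit with the replicate number as a block gave 27 rises and 176 falls, of which 26 and 171 were called without it. Libraries of 3299119 to 5164667 counts limit genes of a few CPM: 80 of the 192 falls had under 10 CPM under fulvestrant, and 40 had no more than 3 reads in any combination library, so that the sizes of those falls are loosely bounded.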
